A study of Mus musculus with 8 samples.

Results

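Laminins, nidogens and the heparan sulfate proteoglycans perlecan and agrin are the main glycoproteins that, with type IV collagen, build basement membranes. They were followed here as 10 genes, chosen by name, which are the laminin alpha chains Lama2, Lama4 and Lama5, the beta chains Lamb1 and Lamb2, the gamma chain Lamc1, the nidogens Nid1 and Nid2, and the proteoglycan core proteins Hspg2 (perlecan) and Agrn (agrin). The array carried 21 probe sets annotated to exactly 1 of these genes, out of 45101 probe sets and out of 18194 genes with such a probe set. RNA of isolated pancreatic islets was measured on 1 array per sample in 4 samples from male C57BL/6J mice on a high fat diet (HF, 45 kcal% fat, replicates 21, 22, 23 and 24) and in 4 samples from male C57BL/6J mice on regular chow (NC, 4 kcal% fat, replicates 1, 2, 4 and 5). Both diets began at weaning at 4 weeks of age and lasted 12 weeks according to the sample labels and 14 weeks according to the methods, and the mice of both groups carry the deletion in Nnt that is native to this substrain. Islets were freed with collagenase, separated on Ficoll and picked by hand, and the islets of 2 mice were pooled for each sample, so that n counts pools and not mice.

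A laminin is a trimer of an alpha, a beta and a gamma chain. Laminins bind to cells through integrins and dystroglycan and assemble into a sheet, nidogens bridge that sheet to type IV collagen, and perlecan and agrin add heparan sulfate chains that hold growth factors. In mouse islets the basement membrane lies mainly along the capillaries and at the islet rim, where beta cells contact the laminins laid down by the endothelium.

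The values are GCRMA intensities on a linear scale, a background-adjusted brightness per probe set that the authors normalized across the arrays, and they were compared as log2. Over all probe sets the 8 samples had median intensities of 13.03 to 13.81. Probe sets were retained when their third-highest intensity over the 8 samples was at least 8.82, which left 56.8% of them, and HF was compared with NC by limma over all of them. A probe set was called higher or lower where the Benjamini-Hochberg adjusted p was below 0.05 and the difference reached 1.5-fold. Intensities of different probe sets do not rank genes by abundance, and the number of arrays limits the precision. In whole islets, fewer cells of a type and less RNA per cell cannot be told apart.

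Transcripts of this group were called lower in HF islets for Nid1, Lama2, Lamb1 and Lamb2, and none was called higher. When each sample was left out in turn, Lama2 lost its call in 3 and Lamb2 in 6 of the 8 fits. For Nid1 and Lamb1 the third probe set was not called. Of the 21 probe sets, 16 were retained, with at least 1 for each of the 10 genes. Of these, 6 probe sets of 4 genes were called lower, 0 were called higher and 10 were not called. At an unadjusted p under 0.05 from limma 9 were lower and 0 higher, and the methods' t-test also put none higher. The share of all retained probe sets at this unadjusted limit was not computed. Unadjusted counts, here and in the gene and marker lists below, are therefore given without that comparison. Over all retained probe sets 3.06% were called lower and 0.644% higher, and counted with 1 probe set per gene 4.28% of genes were called lower and 0.447% higher. Without the fold limit 8 of the 16 probe sets, from 6 genes, were lower at an adjusted p under 0.05, against 4.13% of all retained probe sets. In the same number of probe sets, 8, all 4 HF samples lay below all 4 NC samples, which held for 7.84% of all retained probe sets. The median log2 fold change was -0.50 over the 16 probe sets and 0.02 over all retained probe sets, and 14 of the 16 were negative and 2 positive. How many of all retained probe sets were negative was not computed. The 5 probe sets not retained, 1 each of Lama4, Lamb1 and Agrn and 2 of Lama5, lay between 4.03 and 5.54 in every sample and were not tested.

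**Figure D1:**
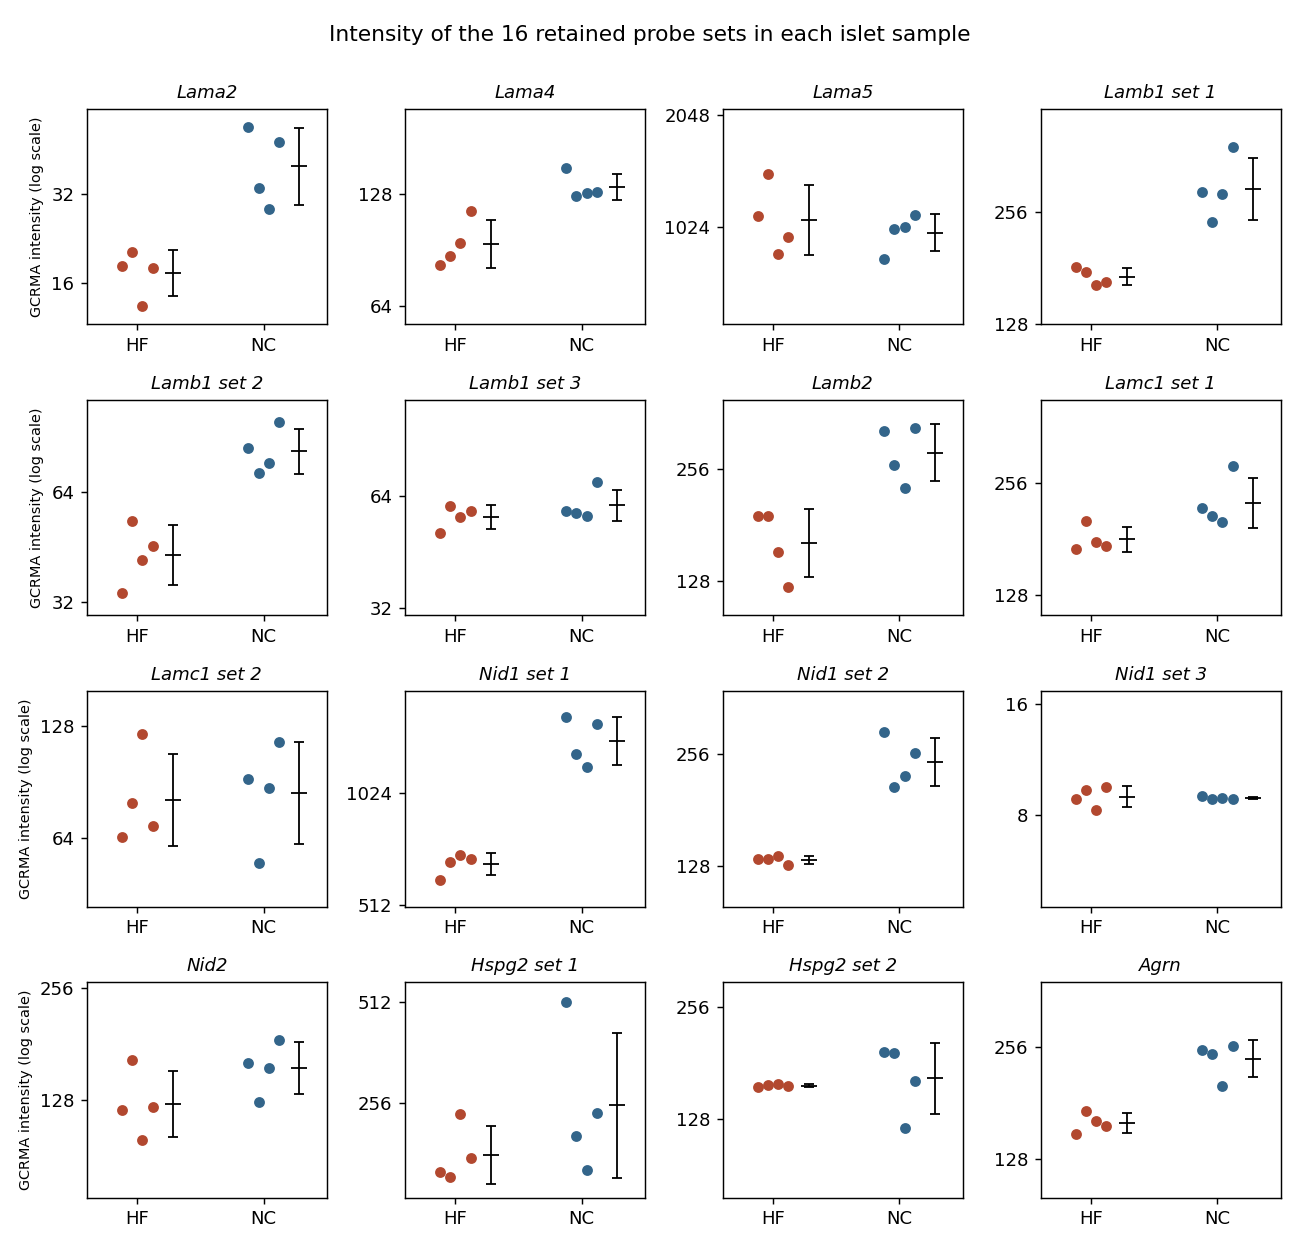
GCRMA intensity (log axis) of the 16 retained probe sets, HF samples in red and NC samples in blue, with the mean and SD of each group (n = 4 each) beside the points. In 8 of the panels, among them both brighter probe sets of Nid1, every HF point lies below every NC point.

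**Figure D2:**
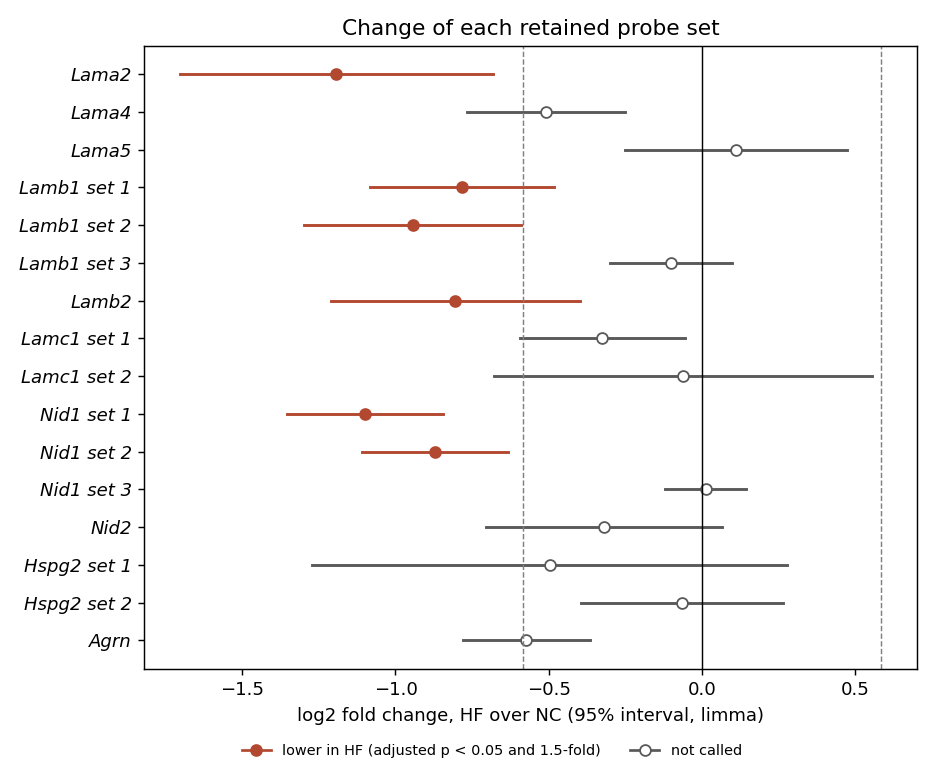
Log2 fold change of HF over NC for each retained probe set with its 95% interval from limma, dashed lines marking a fold of 1.5 in each direction and filled red points the 6 probe sets called lower. The intervals of Agrn and Lama4 lie below 0, but their points stop short of the dashed line, and that of Lama5 spans 0.

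Because Nid1, Lamb1 and Lamb2 were lower in HF islets and Lama5 was not, the sequence before the annotated start of these 4 genes is shown. The set of RefSeq starts used here held 7 of the 10 genes (build GRCm38.p6), in 8 windows. Lama4, Lamc1 and Nid2 were not in that set. The window of Lama2 is not shown because it lies inside the span of a longer RefSeq transcript. So do 147 bases of the Lamb1 window, 45 of the Lama5 window and 15 of the Lamb2 window. Each line is the 250 bases upstream, 5′ to 3′ on the strand of the gene, and capitals mark the motifs GGGCGG (the GC box, which Sp family factors bind) and CCAAT (bound by NF-Y), searched on both strands, so that CCGCCC and ATTGG are marked too.
Nid1, chr13:13437352-13437601, plus strand: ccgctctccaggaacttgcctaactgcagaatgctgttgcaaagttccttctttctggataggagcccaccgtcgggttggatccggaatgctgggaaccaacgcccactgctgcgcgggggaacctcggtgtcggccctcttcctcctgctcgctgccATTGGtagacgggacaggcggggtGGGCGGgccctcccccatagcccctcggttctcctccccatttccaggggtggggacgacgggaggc
Lamb1, chr12:31265043-31265292, plus strand: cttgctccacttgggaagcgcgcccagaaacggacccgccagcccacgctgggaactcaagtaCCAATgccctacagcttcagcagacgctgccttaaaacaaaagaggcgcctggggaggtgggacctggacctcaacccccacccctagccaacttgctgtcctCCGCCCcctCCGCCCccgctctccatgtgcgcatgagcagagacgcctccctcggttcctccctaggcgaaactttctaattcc
Lamb2, chr9:108479612-108479861, plus strand: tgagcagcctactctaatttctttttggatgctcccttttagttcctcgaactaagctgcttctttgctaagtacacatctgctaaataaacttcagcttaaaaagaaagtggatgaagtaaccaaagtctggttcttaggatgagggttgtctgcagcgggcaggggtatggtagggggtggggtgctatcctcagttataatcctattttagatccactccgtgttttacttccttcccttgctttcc
Lama5, chr2:180225860-180226109, minus strand: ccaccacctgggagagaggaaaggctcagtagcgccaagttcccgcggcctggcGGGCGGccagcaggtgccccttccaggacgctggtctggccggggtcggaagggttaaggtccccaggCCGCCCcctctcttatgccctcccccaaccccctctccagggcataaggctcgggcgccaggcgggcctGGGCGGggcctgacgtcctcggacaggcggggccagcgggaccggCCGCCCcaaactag
The Nid1 window held 1 GC box and 1 CCAAT, the Lamb1 window 2 GC boxes and 1 CCAAT, and the Lama5 window 4 GC boxes and no CCAAT. The Lamb2 window held no match to either motif and had a GC content of 43.6%, against 64.4% for Nid1, 62.0% for Lamb1 and 72.4% for Lama5. A GC box was found in 6 and a CCAAT in 2 of the 8 windows of these genes. Of all 32851 windows in the set, 32.7% held a GC box and 33.8% a CCAAT, and their median GC content was 52.4%. The windows with a GC box thus include genes with and without a lower transcript.

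Nid1 had the smallest adjusted p of the group. Nidogen 1 is the glycoprotein that ties the laminin gamma chain to type IV collagen. Its brightest probe set (1416808_at) read 598, 671, 700.2 and 683 in HF islets, against 1642, 1305, 1204 and 1572 in NC islets. The HF samples lay close together, and even the highest stood well below the lowest NC sample. The mean was 663 ± 45.2 in HF and 1431 ± 210.0 in NC (SD, n = 4 each), and the log2 fold change was -1.10 (SE 0.11, 95% interval -1.35 to -0.85, limma adjusted p = 0.00197). The second probe set (1448469_at), annotated to the same GenBank record, read 134, 134, 137 and 129 in HF islets, against 293, 209, 224 and 257 in NC islets. It also separated the diets without overlap, with a log2 fold change of -0.87 (SE 0.10, limma adjusted p = 0.00347). The third (1441519_at) lay between 8.27 and 9.52 in HF and between 8.86 and 9.01 in NC, at the lowest level retained, and gave a log2 fold change of 0.01 (95% interval -0.13 to 0.15).

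Nid2 encodes nidogen 2, which binds laminin and collagen as nidogen 1 does and can stand in for it in many mouse tissues. Its probe set (1423516_a_at) read 121, 165, 100.1 and 123 in HF islets, against 161, 127, 157 and 186 in NC islets. The groups overlapped, since HF replicate 22 was above 3 of the 4 NC samples. The log2 fold change was -0.32 (95% interval -0.71 to 0.06, limma adjusted p = 0.333, two-sided exact permutation p = 0.171), and the interval includes both no change and a fall beyond the fold limit.

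Among the alpha chains, which carry most of the cell-binding sites of a laminin, Lama2 was lower, Lama4 did not reach the fold limit, and Lama5 did not pass the test. Lama2, the alpha chain of muscle and of the Schwann cells of peripheral nerve, read 18.3, 20.4, 13.4 and 17.9 in HF islets (1426285_at), against 53.9, 33.4, 28.4 and 47.8 in NC islets. The groups did not overlap, and the NC samples were the more spread. The log2 fold change was -1.19 (SE 0.22, 95% interval -1.70 to -0.68, limma adjusted p = 0.0198). The call was lost when NC replicate 5 (-1.10, limma adjusted p = 0.0509), HF replicate 21 (-1.22, limma adjusted p = 0.0539) or HF replicate 24 (-1.21, limma adjusted p = 0.0593) was left out, while the size of the difference stayed above 2-fold in all 8 such fits.

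Lama4, the alpha chain typical of endothelial basement membranes, read 82.1, 86.9, 94.4 and 115 in HF islets (1424807_at), against 150.5, 126, 129 and 129 in NC islets. All HF samples were below all NC samples, with HF replicate 24 nearest to them. The mean was 94.5 ± 14.4 in HF and 134 ± 11.2 in NC (SD, n = 4 each). By the difference of mean log2, HF was 1.42-fold lower, with an adjusted p of 0.0367 from limma. The probe set was not called because of the fold limit. The adjusted p also depended on single samples. It lay between 0.0718 and 0.0922 in the 7 limma fits that left out HF replicate 21, 22 or 23 or any 1 NC replicate, and was 0.0716 without the intensity filter and 0.0902 with the methods' t-test. Without HF replicate 24 the log2 fold change was -0.61, against -0.51 with all samples, and only that fit of the 8 put the probe set past both limits.

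Lama5, the alpha chain of most epithelial and mature vascular basement membranes, read 1093, 1421, 864 and 959 in HF islets (1427009_at), against 836, 1010.1, 1019 and 1098 in NC islets. The HF samples included both the highest value, in replicate 22, and values below the NC median, so that the groups overlapped. The log2 fold change was 0.11 (95% interval -0.25 to 0.47, limma adjusted p = 0.768, two-sided exact permutation p = 0.629), an interval that does not reach the fold limit in either direction.

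Both beta chains were lower in HF islets. Lamb1 is the beta chain of the laminins of embryonic and many adult basement membranes. Its brightest probe set (1424113_at) read 182, 176, 162 and 166 in HF islets, against 289, 240.2, 287 and 382 in NC islets. Its second probe set (1424114_s_at) read 33.7, 53.4, 41.7 and 45.6 in HF islets, against 84.7, 72.0, 76.8 and 99.7 in NC islets. Neither overlapped between diets, and the log2 fold changes were -0.78 (SE 0.13, limma adjusted p = 0.0129) for the first and -0.94 (SE 0.15, limma adjusted p = 0.0119) for the second. The third (1451241_at) read 50.9, 60.3, 56.2 and 58.5 in HF islets, against 58.5, 57.7, 56.7 and 69.9 in NC islets. There the groups overlapped, with a log2 fold change of -0.10 (95% interval -0.30 to 0.10, limma adjusted p = 0.579), although all 3 probe sets are annotated to the same GenBank record.

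Lamb2, the beta chain found at vessel walls, kidney glomeruli and the neuromuscular junction, read 191, 191, 153 and 123 in HF islets (1416513_at), against 323, 262, 228 and 330.4 in NC islets. The groups did not overlap, and HF replicate 24 was the lowest sample. The mean was 164 ± 33.0 in HF and 286 ± 49.2 in NC (SD, n = 4 each), and the log2 fold change was -0.80 (SE 0.18, 95% interval -1.21 to -0.40, limma adjusted p = 0.0361). The call was lost without the intensity filter (limma adjusted p = 0.0805), with the methods' t-test (0.0993 after adjustment), and in the 6 fits without HF replicate 21, 23 or 24 or NC replicate 1, 2 or 5. In these 6 fits the log2 fold change lay between -0.88 and -0.67 and the adjusted p from limma between 0.0568 and 0.0952.

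Lamc1, the gamma chain shared by most laminins and the one to which nidogen binds, was not called. Its brighter probe set (1423885_at) read 170.2, 203, 178 and 174 in HF islets, against 219.7, 209, 201 and 284 in NC islets. Only HF replicate 22 and NC replicate 4 crossed, and the log2 fold change was -0.32 (95% interval -0.59 to -0.06, limma adjusted p = 0.159, two-sided exact permutation p = 0.0571). Its other probe set (1423886_at) read 64.5, 79.3, 122 and 69.0 in HF islets, against 92.2, 54.7, 87.0 and 116 in NC islets, with overlap and a log2 fold change of -0.06 (95% interval -0.68 to 0.55, limma adjusted p = 0.937).

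Of the proteoglycans, Agrn differed between the diets by just under the fold limit, and Hspg2 gave no separation. Agrin, known from the clustering of acetylcholine receptors at the neuromuscular junction and also a proteoglycan of vascular basement membranes, binds laminin and dystroglycan. Agrn read 149, 173, 162 and 157 in HF islets (1426670_at), against 252, 246, 201 and 258 in NC islets. The groups did not overlap, and the mean was 160.1 ± 9.72 in HF and 239 ± 25.6 in NC (SD, n = 4 each). The log2 fold change was -0.57 (SE 0.09, 95% interval -0.78 to -0.37, limma adjusted p = 0.01003), a 1.49-fold lower level. Without NC replicate 4 (-0.65) or HF replicate 22 (-0.61) it passed the fold limit too, and its adjusted p from limma stayed under 0.05 in all 8 fits that left out 1 sample.

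Perlecan, the product of Hspg2, is the large heparan sulfate proteoglycan of nearly all basement membranes. Its brighter probe set (1418670_s_at) read 159, 153, 238 and 175 in HF islets, against 511, 203, 162 and 239 in NC islets. NC replicate 1 stood far above the other samples, and the log2 fold change of -0.50 (95% interval -1.27 to 0.28, limma adjusted p = 0.463) was -0.16 without it. The second probe set (1418669_at) read 155, 158, 158 and 157 in HF islets, against 194, 192, 121 and 162 in NC islets. Here the HF samples were nearly equal and lay within the range of NC, with a log2 fold change of -0.07 (95% interval -0.40 to 0.26, limma adjusted p = 0.861).

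Whether related chains changed by unequal amounts was tested with the log2 ratio of 2 genes within each array, for 7 pairs, each gene by its brightest probe set. Exact two-sided permutation tests over the 70 arrangements of the samples cannot give a p below 0.0286, and with 7 pairs at least 5 would have to reach it for any to pass after adjustment. It was reached by 3. The log2 ratio of Nid1 over Nid2 was 2.31, 2.03, 2.81 and 2.47 in HF islets, against 3.35, 3.36, 2.94 and 3.08 in NC islets, a difference of -0.78 without overlap (exact permutation p = 0.0286, adjusted p = 0.0667). With the mean of all retained probe sets of each gene in place of the brightest, that difference was -0.33 (exact permutation, adjusted p = 0.16), and -0.67 with the Nid1 probe set at the floor left out (exact permutation, adjusted p = 0.0667). The log2 ratio of Lama2 over Lama5 was -5.90, -6.12, -6.01 and -5.74 in HF islets, against -3.96, -4.92, -5.16 and -4.52 in NC islets, a difference of -1.30 (exact permutation p = 0.0286, adjusted p = 0.0667). That of Lamb1 over Lamc1 was 0.09, -0.20, -0.13 and -0.06 in HF islets, against 0.39, 0.20, 0.51 and 0.43 in NC islets, a difference of -0.46 (exact permutation p = 0.0286, adjusted p = 0.0667), and of -0.42 with the mean of all retained probe sets. In these 3 pairs the HF samples were all below the NC samples, but none passed the adjusted threshold.

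For the other 4 pairs the groups overlapped. The difference was 0.69 for Lama4 over Lama2 (exact permutation p = 0.0857, adjusted p = 0.12) and -0.62 for Lama4 over Lama5 (exact permutation p = 0.0571, adjusted p = 0.1). It was 0.02 for Lamb1 over Lamb2 (exact permutation p = 0.914) and 0.08 for Hspg2 over Agrn (exact permutation p = 0.857). With the mean of all retained probe sets these were 0.20 and 0.29, and without NC replicate 1 that of Hspg2 over Agrn was 0.39.

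**Figure D3:**
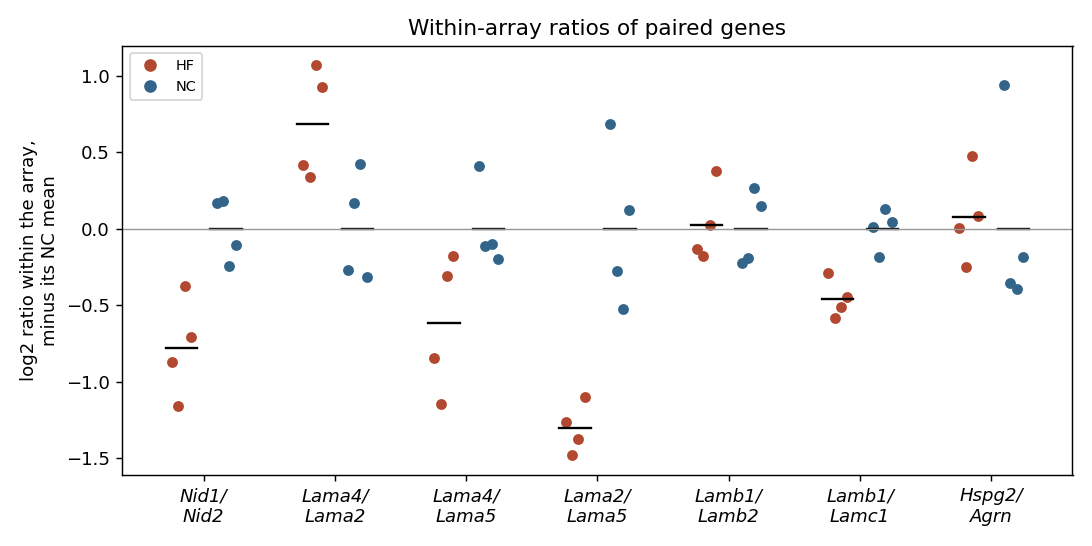
Log2 ratio of 2 genes within each array, minus the mean of that ratio in NC, for the 7 pairs, with HF in red, NC in blue and a bar at each group mean (n = 4 each). HF points lie wholly below NC points for Nid1 over Nid2, Lama2 over Lama5 and Lamb1 over Lamc1.

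The same test was run between probe sets of 1 gene, in 6 comparisons with the brightest probe set, of which at least 4 would have to reach the smallest p for any to pass. It was reached by 3, of which 1, the third probe set of Nid1, lay at the lowest level retained in every sample and bounds no change, so that its difference is not read. The third probe set of Lamb1 changed by 0.68 less on the log2 scale than the first, and the second of Nid1 by 0.23 less (each exact permutation p = 0.0286, adjusted p = 0.0571, no overlap of the groups). The second probe set of Lamb1 differed from the first by -0.16 (exact permutation p = 0.486), that of Lamc1 by 0.26 (exact permutation p = 0.571) and that of Hspg2 by 0.43 (exact permutation p = 0.257). The transcript forms that each probe set reads were not examined.

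Other basement membrane genes were read from lists, each gene by its brightest retained probe set, beside a median log2 fold change of 0.02 over all retained probe sets and 4.28% of all genes called lower. Of 5 other laminin chains only Lama3, the alpha chain of epithelial anchoring laminins, was measured, at -0.42 (limma adjusted p = 0.162). Of 8 basement membrane collagens 7 were measured, and 4 were called lower, 0 higher and 3 neither, with a median of -0.68. Col15a1, a collagen at the outer face of vascular basement membranes, and Col4a5, a type IV chain, both fell by 1.22 on the log2 scale (limma adjusted p = 0.00198 and 0.00224). Col4a1 and Col4a2, the chains of the common type IV collagen network, both fell by 0.68 (limma adjusted p = 0.00564 and 0.00523).

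Of 18 other basement membrane proteins 13 were measured, and 9 were called lower and 0 higher, with a median of -1.03. Fbln2, a fibulin that binds nidogen and laminin, fell by 2.73 on the log2 scale (limma adjusted p = 0.00493), and Fbln1 fell by 1.83 (limma adjusted p = 0.00300). Pxdn, the peroxidasin that crosslinks type IV collagen, fell by 0.95 (limma adjusted p = 0.00493), and Tinagl1, a matrix protein related to cathepsin B, fell by 1.03 (limma adjusted p = 0.00999). The calls of 3 further genes of that list did not hold in every fit that left out a sample. Vwa1 lost its call in 6 of the 8 fits, all but those without NC replicate 2 or 5, with an adjusted p from limma of 0.0521 to 0.101. Sparc lost it in 4, those without HF replicate 21, HF replicate 24, NC replicate 1 or NC replicate 2, with an adjusted p from limma of up to 0.0674, and Ntn1 in that without HF replicate 24, at an adjusted p of 0.0517. Ntn1 also read only 6.15 to 10.6 in HF islets, around the retention limit, and Fbln1 only 9.36 to 13.1, just above it.

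Among the receptors and their partners 3 genes were called lower in HF islets, and no heparan sulfate enzyme was called. Of 20 receptors and receptor partners of laminin and agrin 16 were measured, and 3 were called lower and 0 higher, with a median of -0.21. At an unadjusted p under 0.05 from limma 8 were lower and 1 higher, the last being Sdc4, the cell surface proteoglycan syndecan 4, at 0.36 with all HF samples above all NC samples (limma adjusted p = 0.0467, under the fold limit). Dmd, the dystrophin gene, fell by 0.84 on the log2 scale (limma adjusted p = 0.00290). Sgce, a sarcoglycan of the same complex, fell by 1.003 (limma adjusted p = 0.0115), and Sdc1, the cell surface proteoglycan syndecan 1, fell by 0.98 (limma adjusted p = 0.0151). Dag1, the dystroglycan gene, was not called, at -0.11 with all HF samples below all NC samples (limma adjusted p = 0.223). The measured integrin chains lay between -0.53 (Itga1) and 0.11 (Itgb1), and none was called. Of 18 genes of heparan sulfate synthesis and editing 13 were measured and 0 were called in either direction, with a median of -0.03 and 2 lower at an unadjusted p under 0.05 from limma. The 2 with the highest mean log2 intensity, Hs2st1 and Glce, which both act on the uronic acids of the chain, stood at 0.10 and 0.16 (limma adjusted p = 0.316 and 0.444). Ext1, a polymerase of the chain that comes before Glce by mean linear intensity, stood at -0.15 (limma adjusted p = 0.607).

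**Figure D4:**
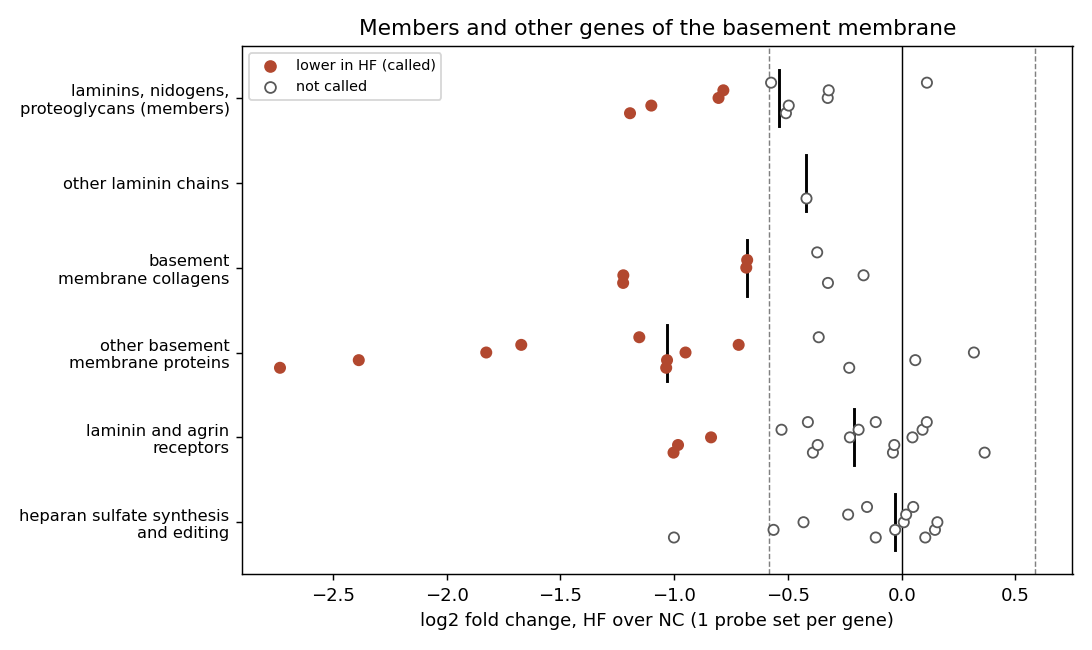
Log2 fold change of HF over NC of each measured gene, 1 probe set per gene, for the 10 genes and 5 lists of related genes, with called genes filled, list medians as black bars and dashed lines at a fold of 1.5. No gene of any list was called higher, and the 13 heparan sulfate enzymes centre near 0 while the 7 collagens all lie below it.

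Markers of the cells that lay down these proteins also differed between the diets. Of 12 endothelial markers all were measured and 2 were called lower, Tek at -0.84 (limma adjusted p = 0.00428) and Pecam1 at -0.81 (limma adjusted p = 0.00862). The median was -0.54 and the summed intensity ranged from 14296 to 16174 in HF and from 18694 to 21875 in NC. Of 6 measured smooth muscle and pericyte markers out of 8, 4 were called lower, among them Acta2 (-1.43) and Tagln (-1.39), with a median of -1.14 and a summed intensity of 7138 to 8181 in HF and 10589 to 11721 in NC. All 7 measured fibroblast and stellate markers out of 8 were called lower, among them Vim (-1.81) and Cdh11 (-2.67), with a median of -1.81 and a summed intensity of 1555 to 2301 in HF and 5165 to 6329 in NC. Cdh11 read only 7.43 to 11.4 in HF islets, around the retention limit, so that the size of its fall is uncertain. The groups did not overlap in the sum of any of these 3 lists. The same held for the Schwann cell, macrophage, and delta and PP lists below, and for beta cell markers with HF above NC.

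Of 5 measured Schwann cell markers out of 8, 3 were called lower, among them Kcna1 (-2.52) and Cdh19 (-3.73), with a median of -0.80 and a summed intensity of 58.3 to 89.0 in HF and 259 to 351 in NC. Cdh19 read 5.81 and 6.82 in HF replicates 21 and 24, under the retention limit of 8.82, so that the size of its fall is uncertain. Of 9 macrophage markers 4 were called lower, among them Cd14 (-2.06) and Csf1r (-0.77), with a median of -0.58 and a summed intensity of 3050.1 to 4006 in HF and 4769 to 5656 in NC. None of the 8 measured beta cell markers out of 10 was called, and 1 was higher at an unadjusted p under 0.05 from limma, with a median of 0.10 and a summed intensity of 263796 to 276569 in HF and 249351 to 255257 in NC. The labelled tissue thus carried its defining markers in every sample. None of the 3 alpha, 3 delta and PP, 6 acinar, 5 duct and 1 mesothelial markers measured was called. At an unadjusted p under 0.05 from limma 2 alpha, 2 delta and PP and 1 duct marker were lower. The medians were -0.78 for alpha, -0.25 for delta and PP, -0.03 for acinar and -0.04 for duct markers. The alpha cell hormone gene Gcg stood at 0.01. The summed delta and PP intensity was 77615 to 89157 in HF and 92845 to 94366 in NC. The duct marker Krt19 lay under 8.82 in all HF samples. The summed acinar intensity was 261852 to 303627 in HF and 243994 to 311851 in NC, so that exocrine RNA was present on both diets.

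Set on 1 scale, as the mean log2 difference from the NC mean over the genes of a list, the 10 genes lay between -0.67 and -0.47 in the HF samples, against -0.21 to 0.19 in the NC samples. Endothelial markers lay between -0.64 and -0.44 in HF and between -0.19 and 0.10 in NC. Duct markers, with Krt19 under 8.82 in all HF samples, lay between -0.57 and -0.40 in HF and between -0.16 and 0.28 in NC. Alpha cell markers lay between -0.75 and -0.26 in HF and between -0.17 and 0.38 in NC. Basement membrane collagens lay between -0.75 and -0.59 in HF and between -0.09 and 0.13 in NC. Fibroblast and stellate markers lay lower, between -2.17 and -1.50 in HF and between -0.31 and 0.15 in NC. The order of the samples within a diet was not the same in every list. Within HF, replicate 22 had the highest mean of the 10 genes and of the fibroblast markers. Replicate 23 had the lowest mean of the 10 genes (-0.67) but the highest of the smooth muscle and pericyte (-0.75) and Schwann cell markers (-1.27). In the endothelial markers replicates 22 and 23 were nearly equal (-0.437 and -0.435). Over all 16 retained probe sets, as the mean deviation from the HF mean, replicate 21 was lowest (-0.073), against -0.012 for replicate 23. Within NC, replicate 4 had the lowest mean of the 10 genes and of the endothelial, smooth muscle and fibroblast markers, but the highest of the Schwann cell markers. The part of these markers in the lower Nid1, Lama2, Lamb1 and Lamb2 values was not tested.

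**Figure D5:**
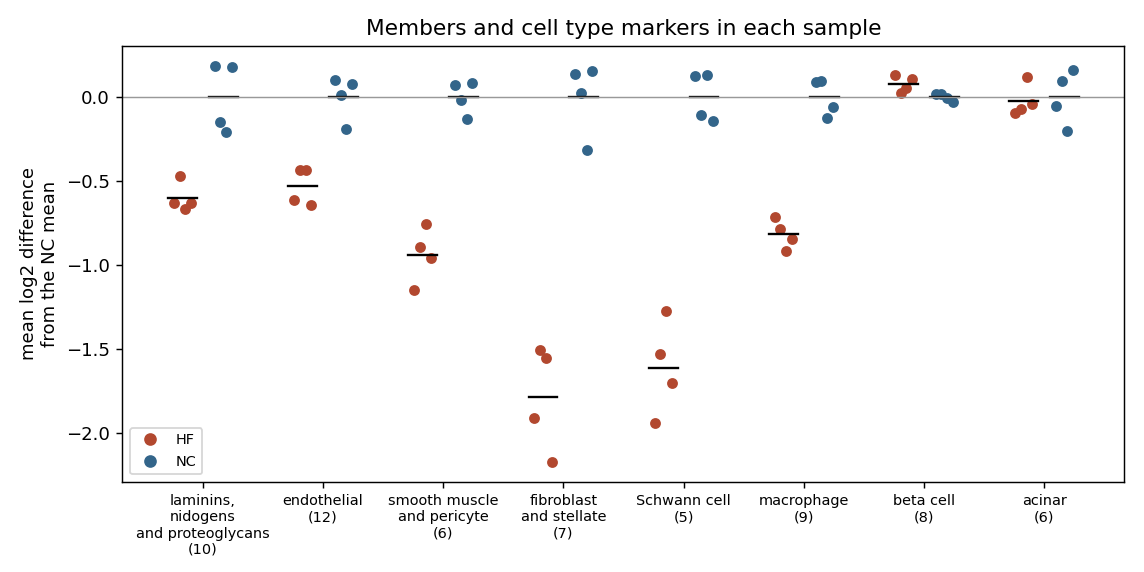
Mean log2 difference from the NC mean over the genes of each list (number of genes in brackets) in each sample, HF in red left of NC in blue, with bars at the group means (n = 4 each). The HF points of the 10 genes lie in nearly the same range as those of the endothelial markers and above those of the fibroblast markers. Beta cell and acinar markers stay near 0. The duct, alpha cell and basement membrane collagen lists, which are not drawn, overlap the HF range of the 10 genes as well.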

How the data were processed

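Islet RNA of 4 HF and 4 NC samples, each pooled from 2 mice, was hybridised to mouse expression arrays, 1 array per sample. GCRMA values were calculated by the authors in ArrayAssist Lite 3.4, and the deposited table gives them as intensity on the linear scale for 45101 probe sets. They were taken to log2 with no further normalization. Of the probe sets, 34958 were annotated to 1 gene, 932 to several and 9211 to none named here. Present flags and SAM, which the methods used, were replaced by keeping as many probe sets as the methods tested, by their third-highest intensity and by limma 3.58.1 (lmFit and eBayes) in R 4.3.3, tested on simulated data. All adjusted p-values of single probe sets are from limma with Benjamini-Hochberg adjustment over all retained probe sets. Gene pairs and probe sets of 1 gene were compared by two-sided exact permutation tests. Figures were drawn in Python 3.11.15. Promoter windows are from RefSeq.

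All 10 genes were named with every probe set. Of each list of related genes up to 4 called genes with the smallest adjusted p were named, or the 2 with the highest mean where none was called, and of marker lists up to 2 called genes. Vwa1, Sparc and Ntn1, whose calls were lost, and Sdc4, Ext1, Dag1, Itga1 and Itgb1 were named after their values were seen. The members and lists were chosen with earlier results of these data known. Alternatives were no filter, a stricter filter at an intensity of 50, quantile normalization, scaling on beta cell markers, a trended robust prior, sample weights, an unpaired Student's t-test, other limits, folds of linear means, 1 probe set per gene, a floor on low values and leaving out each sample. Leaving out samples in the comparison of probe sets of 1 gene and leaving the Nid1 probe set at the floor out of the mean of its probe sets were added after the data were seen. No batch is given in the labels, and the p-values measure the spread between pools.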

Additional observations from a re-analysis of the deposited data

Results flagged for a closer look

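In groups of 4 samples, 32 groups of the 16 probe sets were examined for a sample far from the other 3, and 2 were beyond Dixon's critical value for the gap over the range. Chance flags about 1 in 20 groups. For Lama4, NC replicate 1 read 150.5, against 126 to 129 in the other NC samples. For the third probe set of Lamb1, NC replicate 5 read 69.9, against 56.7 to 58.5 in the other NC samples.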

How the results depend on the processing

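The 6 probe sets called lower became 8 when arrays were scaled on beta cell markers and 8 with no fold limit (Agrn and Lama4 added), 4 with Student's t-test after adjustment (Lama2 and Lamb2 lost, at 0.0701 and 0.0993) and 2 at an adjusted p under 0.01, and none of the 16 was called higher in any alternative. Leaving out 1 sample gave 4 to 7. Both brighter probe sets of Nid1 and of Lamb1 kept their calls in all 8 such fits. Over all retained probe sets, 165 were higher and 783 lower. The higher count was 85 with no filter, 59 with Student's t-test after adjustment and 332 before it, 520 with no fold limit, 45 at an adjusted p under 0.01, 66 with 1 probe set per gene, and 93 to 158 with 1 sample left out. The lower count was 450 with the adjusted t-test, 409 at an adjusted p under 0.01, and 543 to 759 with 1 sample left out. The median of all retained probe sets was 0.02, -0.06 after scaling on beta cell markers and 0.03 after quantile normalization.

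Values that were not called and changed sign were those of the third probe set of Nid1 (0.01, against -0.067 after scaling on beta cell markers and -0.017 to 0.051 with 1 sample left out), the second of Hspg2 (-0.21 to 0.013), the second of Lamc1 (-0.27 to 0.090), Lama5 (-0.028 to 0.21), and the differences Lamb1 minus Lamb2 (-0.10 to 0.11) and Hspg2 minus Agrn (-0.055 to 0.39). The cause was not tested. No paired analysis was possible because the HF and NC samples share no replicate number. Probe sets near 8.82, such as the third of Nid1, lie at the floor set by the intensity filter and bound no change.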
